A study of Mus musculus with 19 samples.

Results

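The genes described here are 36 genes of fatty acid and cholesterol synthesis that are classical targets, partners or regulators of the sterol regulatory element-binding proteins (SREBPs), and they were chosen by gene symbol in the authors' comparison tables. The rule uses no measured value, but it was written with earlier results of these data known. All 36 were counted among 14319 genes in use, and all 36 passed the filter on low counts, which left 12493 genes tested. By role they are 5 regulators, 3 genes of acetyl-CoA and NADPH supply, 4 of fatty acid synthesis, 5 of elongation and desaturation, 3 of glycerolipid synthesis, fructose entry and lipid droplets, 6 of the mevalonate and isoprenoid steps, 9 between squalene and cholesterol, and 1 sterol carrier.

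RNA of 19 mouse livers was sequenced. Mice labelled tg carried AgRP-IRES-Cre tg/wt with ROSA26 ChR2 fl/wt, and mice labelled wt carried AgRP-IRES-Cre wt/wt with ROSA26 ChR2 fl/wt, so the floxed channelrhodopsin allele was common to all adult mice and the Cre driver, which is active in hunger-promoting AgRP neurons, was present in tg mice alone. Every mouse, labelled as random fed, was given 473 nm light through a fibre above the arcuate nucleus (10 ms pulses at 20 Hz, 3 s on and 1 s off) and had no food meanwhile. Light began at zeitgeber time (ZT) 5.5 for 2 h or at ZT 3.5 for 4 h, and livers of both cohorts were taken at ZT 7.5. The groups were tg 2 h (4 libraries), wt 2 h (5), tg 4 h (5) and wt 4 h (5). As no tg mice went without light, exciting the neurons and carrying the driver cannot be told apart. No measure of AgRP RNA was used here, and so nothing checks the genotype labels directly. The labels number the libraries within a group and give each a further number whose meaning is not stated. Each p-value therefore sets a difference of group means against the spread between these libraries.

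Total counts ran from 21474255 to 32721828 per library. Hepatocyte markers (6 of 6 measured: Alb, Apoa1, Ttr, Serpina1a, Cyp2e1 and Hnf4a) summed to 62100 to 95400 CPM (counts-per-million, on scaled library totals) in tg 2 h, 70600 to 90900 CPM in wt 2 h, 84200 to 99500 CPM in tg 4 h and 68600 to 91100 CPM in wt 4 h. Ranges were higher in tg 4 h than in wt 4 h for Alb (58500 to 71400 CPM, against 43800 to 60700 CPM), Apoa1 (8520 to 11500 CPM, against 7210 to 9610 CPM) and Hnf4a (763 to 951 CPM, against 401 to 763 CPM). The tg 4 h range lay inside the wt 4 h range for Ttr (5020 to 5560 CPM, against 4330 to 6020 CPM) and Serpina1a (4890 to 5660 CPM, against 4260 to 5970 CPM). For Cyp2e1 it enclosed the wt 4 h range (4290 to 9620 CPM, against 5880 to 9040 CPM). The part of these markers in the results at 4 h was not tested. Of 6 adipocyte markers, a check made because fat tissue also makes lipogenic RNA, Adipoq, Plin1, Lep and Retn were not among the genes counted, and Cfd and Cidec summed to 0.892 to 6.90 CPM in tg 2 h, 1.13 to 8.79 CPM in wt 2 h, 2.76 to 15.7 CPM in tg 4 h and 2.48 to 8.48 CPM in wt 4 h. The share of counts from 13 mitochondrially encoded genes was 7.75% in tg 2 h replicate 1 and 7.83% in wt 4 h replicate 1, against 10.0% to 12.9% in the other libraries. In tg 4 h replicate 3, 3 sterol genes lay apart from the rest of their group. Results that turn on these 3 libraries are given with and without them below.

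SREBPs are made as precursors in the membrane of the endoplasmic reticulum, where the sterol sensor SCAP escorts them to the Golgi for cutting, after which the free transcription factor enters the nucleus. INSIG proteins hold SCAP and its cargo back when sterols are plentiful. In liver, SREBP-1c (from Srebf1) is induced by insulin and drives fatty acid synthesis together with the glucose-responsive factor ChREBP (from Mlxipl), while SREBP-2 (from Srebf2) drives cholesterol synthesis and uptake.

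Promoter sequences are shown for 4 of the regulators and enzymes whose RNA differed between genotypes and for Hmgcs1, whose window holds a classical sterol regulatory element. RefSeq (GRCm38.p6) listed 40 windows, from 250 bases before to 50 bases after a start, for 30 of the 36 genes. The lines below give the bases upstream of both the RefSeq and the GENCODE start, 5′ to 3′ on the gene's strand, with matches in either orientation to TCACNCCAC (the sterol regulatory element), CACGTG (the E-box bound by ChREBP and USF factors) or CCAAT (the NF-Y box) in capitals. They are Insig2 at chr1:121332590-121332789 (minus strand), Srebf2 at chr15:82147019-82147180 (plus), Hsd17b7 at chr1:169969242-169969441 (minus), Mlxipl at chr5:135089690-135089889 (plus) and Hmgcs1 at chr13:119690151-119690350 (plus).
Insig2: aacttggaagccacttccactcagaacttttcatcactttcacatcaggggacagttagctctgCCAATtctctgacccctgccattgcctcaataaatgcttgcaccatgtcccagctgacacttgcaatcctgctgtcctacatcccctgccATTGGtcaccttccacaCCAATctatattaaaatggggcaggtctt
Srebf2: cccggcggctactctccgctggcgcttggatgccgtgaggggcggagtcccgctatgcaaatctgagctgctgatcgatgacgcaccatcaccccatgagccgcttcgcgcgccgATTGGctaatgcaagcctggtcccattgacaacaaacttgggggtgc
Hsd17b7: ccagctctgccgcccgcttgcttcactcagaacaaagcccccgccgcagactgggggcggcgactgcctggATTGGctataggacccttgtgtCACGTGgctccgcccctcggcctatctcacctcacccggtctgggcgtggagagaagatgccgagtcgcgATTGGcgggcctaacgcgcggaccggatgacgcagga
Mlxipl: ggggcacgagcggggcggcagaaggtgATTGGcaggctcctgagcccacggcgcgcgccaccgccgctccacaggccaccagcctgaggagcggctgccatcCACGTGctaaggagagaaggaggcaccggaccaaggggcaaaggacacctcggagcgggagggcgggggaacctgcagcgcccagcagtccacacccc
Hmgcs1: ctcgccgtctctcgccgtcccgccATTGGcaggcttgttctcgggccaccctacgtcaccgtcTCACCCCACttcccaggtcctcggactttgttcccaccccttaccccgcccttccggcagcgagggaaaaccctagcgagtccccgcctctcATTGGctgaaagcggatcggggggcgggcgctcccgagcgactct

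All 4 motifs were searched on both strands, and none of the strings contains another. TCACNCCAC was found in 2 of the 40 windows (5.0%), those of Hmgcs1 and of a further start of Mlxipl, against 1.24% of all 32851 windows. CCAAT was found in 28 of 40 (70.0%), against 37.41% of all windows, and GGGCGG, the Sp1 box, in 25 of 40 (62.5%), against 35.66%. CACGTG was found in 6 of 40 (15%), against 7.15%, namely 1 window each of Dhcr7, Elovl5, Hsd17b7, Insig1, Mlxipl and Sc5d. A match describes these letters and is not evidence of binding.

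After 2 h of light, none of the 36 genes passed the test in tg against wt livers, a comparison in which 2.16% of all 12493 genes did (1.14% higher and 1.02% lower; adjusted p under 0.05 by the quasi-likelihood test of edgeR, adjusted over all genes after Benjamini and Hochberg). At an unadjusted p under 0.05 there were 3 (Thrsp, Hsd17b7 and Mlxipl), where 11.7% of all genes lay. The log2 fold changes were positive in 22 and negative in 14 genes, with a median of 0.097 against 0.007 over all genes tested. After 4 h, 3 of the 36 passed, where 11.4% of all genes did (5.75% higher and 5.64% lower): Insig2 and Srebf2 rose and Stard4 fell. No gene of the 36 was free of overlap between the genotypes at 4 h, where 8.19% of all genes were, and 8 of the 36 had an unadjusted p under 0.05, where 25.5% of all genes had. The log2 fold changes at 4 h were positive in 11 and negative in 25 genes, with a median of -0.106 against -0.011 over all genes. In bulk liver, fewer cells of a type and less RNA per cell cannot be told apart in any of these values. No gene of acetyl-CoA supply, elongation and desaturation, glycerolipid synthesis or the mevalonate steps passed at either duration, and whether these groups shifted jointly was not tested. With 2.16% of all genes called at 2 h and 11.4% at 4 h, a count of 0 in role groups this small says little about them.

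**Figure D1:**
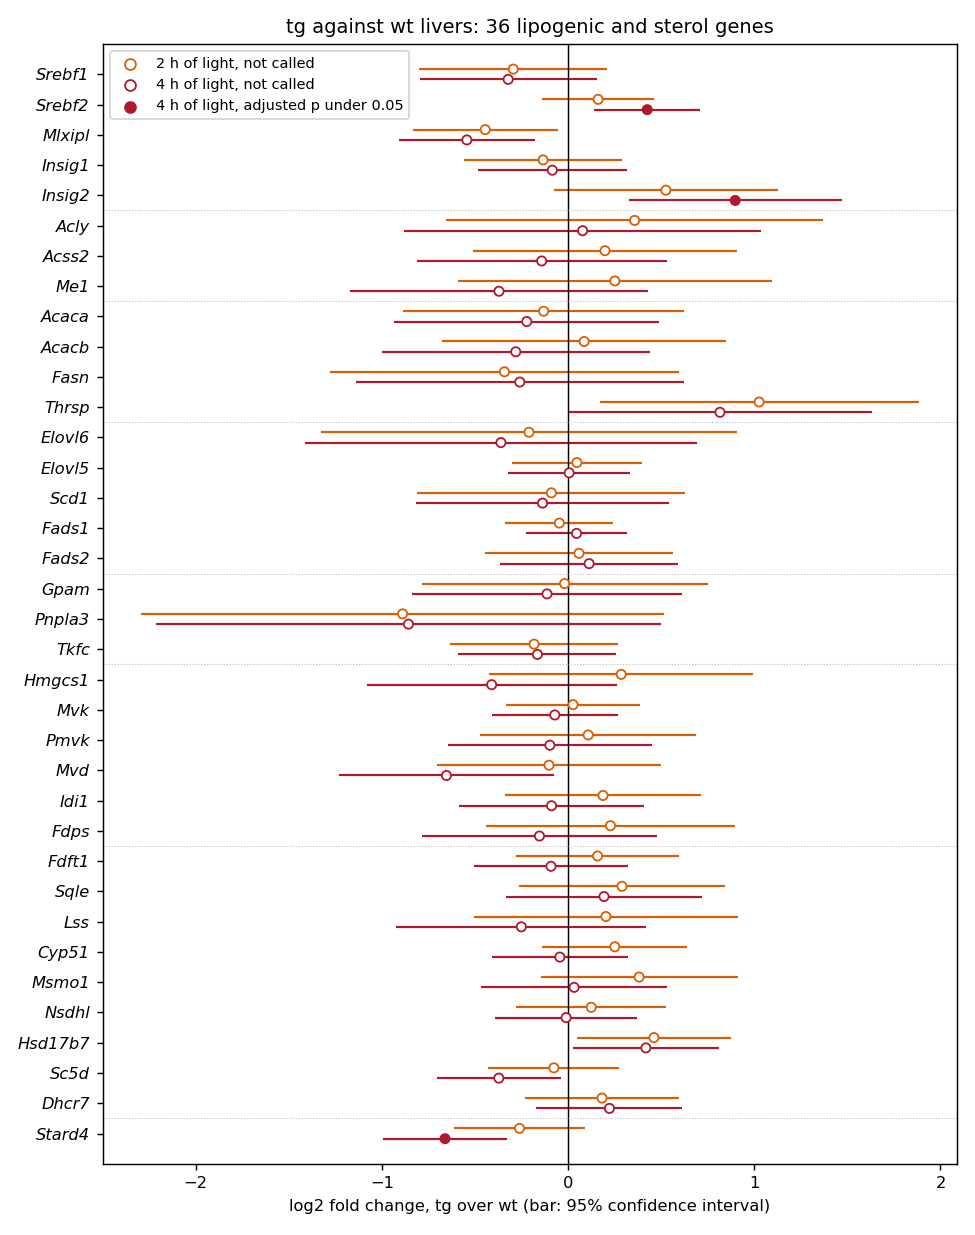
Log2 fold change of tg over wt for each of the 36 genes (points, with 95% confidence intervals as bars), at 2 h (orange, upper point of each pair) and 4 h (red), in the order of the roles, with dotted lines between roles. Filled points passed at an adjusted p under 0.05: Insig2 and Srebf2 to the right of 0 and Stard4 to the left, all at 4 h.

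The interval around each gene that did not pass says how large a change could be hidden. At 2 h, the 95% interval lay within a 2-fold change in either direction for 29 of 36 genes and within 1.5-fold for 8. At 4 h it lay within 2-fold for 24 of the 33 genes not called and within 1.5-fold for 8. The interval that reached lowest was that of Pnpla3, a lipid droplet protein of triglyceride turnover counted at only 0.551 CPM on average, down to -2.29 at 2 h and -2.21 at 4 h on the log2 scale.

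Among the regulators, the SREBP-retaining gene Insig2 and the SREBP-2 gene Srebf2 were higher in tg than in wt livers at 4 h. Insig2 (ENSMUSG00000003721, chromosome 1, 121304353 to 121332589) encodes the INSIG form whose liver transcript is lowered by insulin in rodents. Its level was 309.6, 136, 122, 250.0 and 275 CPM in the 5 tg 4 h livers, against 120.4, 95.6, 79.4, 145 and 147 CPM in the wt 4 h livers. Of the tg livers, 3 stood above every wt liver and the other 2 lay inside the wt range. The log2 fold change was 0.90 ± 0.27 (SE; adjusted p = 0.0403, edgeR), a fold of 1.86 with a 95% interval from 1.25 to 2.77. The call was lost without any of tg 4 h replicates 1, 4 and 5 or wt 4 h replicates 1, 2 and 3, with log2 fold changes of 0.739 to 0.906 and adjusted p between 0.0535 and 0.111. It was also lost with only the 2 groups in the fit (0.907, adjusted p = 0.0724, edgeR). At 2 h Insig2 had 135, 74.7, 84.4 and 177 CPM in tg livers, against 86.1, 79.3, 64.0, 88.5 and 91.0 CPM in wt livers. The groups overlapped there, and the log2 fold change of 0.53 ± 0.29 did not pass (adjusted p = 0.536, edgeR).

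Srebf2 (ENSMUSG00000022463, chromosome 15, 82147181 to 82205379) had 80.9, 57.0, 46.2, 58.2 and 76.9 CPM in tg 4 h livers, against 53.6, 44.9, 47.4, 51.8 and 40.0 CPM in wt 4 h livers. All tg livers but replicate 3 were above the highest wt liver. The log2 fold change of 0.42 ± 0.14 (SE) had an edgeR adjusted p of 0.0498, just under the threshold, and the call was lost in 8 of 10 fits that left out a single 4 h library, at adjusted p of 0.0535 to 0.145, the exceptions being the fit that dropped tg 4 h replicate 3 and the fit that dropped wt 4 h replicate 1. It was also lost with upper-quartile scaling (adjusted p = 0.0613), no filter on low counts (0.0539), limma-voom (0.0707) and only the 2 groups in the fit (0.0841). At 2 h the 4 tg livers had 59.5, 53.4, 54.5 and 56.2 CPM, against 49.1, 54.3, 36.4, 57.4 and 52.8 CPM in wt livers, and overlapped with them (log2 fold change 0.16 ± 0.14).

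Mlxipl (ENSMUSG00000005373, chromosome 5, 135089890 to 135138382), the gene of ChREBP, had lower values in tg livers at both durations. It had 102, 87.8, 72.9, 95.5 and 118 CPM in tg 4 h livers, against 104, 151, 159, 184 and 95.6 CPM in wt 4 h livers. The 2 h values were 96.6, 125, 134 and 149 CPM in tg livers, against 221, 186, 153, 152 and 148 CPM in wt livers. The highest tg liver at 2 h barely exceeded the lowest wt liver, while at 4 h wt replicates 1 and 5 lay among the tg livers. The log2 fold changes were -0.54 ± 0.18 (SE) at 4 h, with an edgeR adjusted p of 0.0506 just above the threshold, and -0.45 ± 0.19 at 2 h (adjusted p = 0.327, edgeR). In the 4 h fits, adjusted p fell to 0.0414 without tg 4 h replicate 5, 0.0204 without wt 4 h replicate 1 and 0.0200 without wt 4 h replicate 5. With every library kept, Mlxipl passed by edgeR with upper-quartile scaling (adjusted p = 0.0344) and a filter of 1 CPM in 4 libraries (0.0465). It also passed by DESeq2 (adjusted p = 0.0253) and limma-voom with sample weights (0.0228). With RLE scaling, no filter, limma-voom without weights, the replicate block or only the 2 groups, it did not pass.

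Srebf1, the SREBP-1 gene, had 96.4, 193, 213, 154 and 176 CPM in tg 4 h livers, against 177, 221, 221, 300.1 and 122 CPM in wt 4 h livers. At 2 h it had 193, 206, 323 and 171 CPM in tg livers, against 273, 304, 316, 222 and 254 CPM in wt livers. The groups overlapped at both durations, and the log2 fold changes of -0.29 ± 0.24 at 2 h and -0.32 ± 0.23 at 4 h did not pass. Insig1, the other INSIG gene and itself an SREBP target, had 281, 270.1, 209, 272 and 343 CPM in tg 4 h livers, against 416, 276, 221, 375 and 170.2 CPM in wt 4 h livers. Its values at 2 h were 211, 274, 308 and 256.7 CPM in tg livers, against 274, 317, 239.5, 328 and 281 CPM in wt livers. The tg livers lay inside the wt range at 4 h, and the intervals ran from -0.48 to 0.31 at 4 h and from -0.56 to 0.29 at 2 h. Whether Insig2 differed from Insig1 in its response was not tested.

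**Figure D2:**
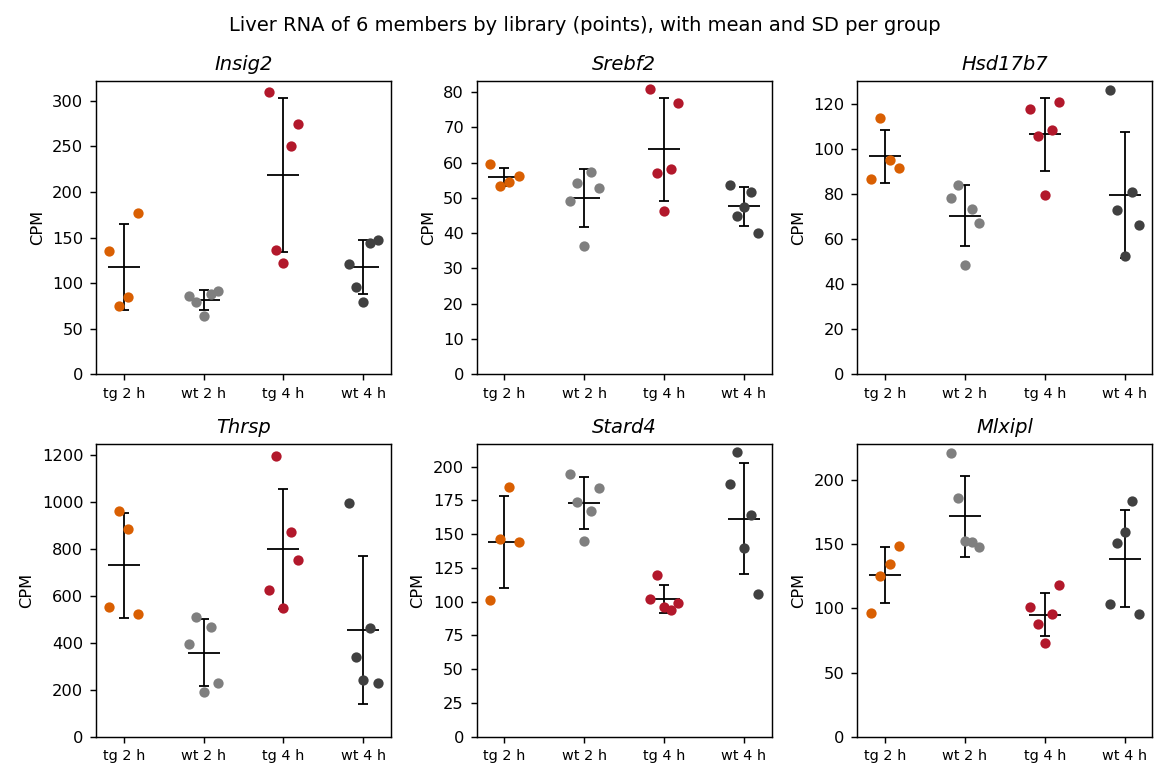
CPM of the 6 genes that passed the test in any comparison, 1 point per liver, with the group mean and SD, in the order tg 2 h, wt 2 h, tg 4 h, wt 4 h and each axis starting at 0. The tg 4 h livers had 122 to 309.6 CPM of Insig2, against 79.4 to 147 CPM in wt 4 h livers, and 94.1 to 120.1 CPM of Stard4, against 106 to 211 CPM in wt 4 h livers.

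Of the genes that supply acetyl-CoA and NADPH (Acly, which cleaves citrate, Acss2, which activates acetate, and the malic enzyme Me1), 0 of 3 passed at 2 h or 4 h. Their spread was wide: Acly ran from 149 to 477 CPM in tg 4 h livers and from 119 to 633 CPM in wt 4 h livers. Acss2 averaged 340.0 CPM and Me1 238 CPM over all 19 libraries. The log2 fold changes of these 3 genes lay between 0.20 and 0.36 at 2 h and between -0.37 and 0.08 at 4 h. The same held for the committed steps of fatty acid synthesis, the acetyl-CoA carboxylases Acaca and Acacb and the synthase Fasn. Acaca averaged 129 CPM and Acacb 114 CPM over all libraries. Fasn had 287, 568.5, 317, 421 and 347 CPM in tg 4 h livers, against 775, 411, 334, 619 and 183 CPM in wt 4 h livers. At 2 h Fasn had 273, 660.5, 946 and 361 CPM in tg livers, against 1048, 988, 274, 501 and 738 CPM in wt livers. The tg livers lay inside the wt range at 4 h, and the log2 fold change of -0.26 ± 0.42 (SE) had a 95% interval from -1.14 to 0.62. At 2 h it was -0.34 ± 0.45.

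Thrsp (ENSMUSG00000035686, chromosome 7, 97412938 to 97417730), a small nuclear and cytosolic protein that accompanies lipogenesis, was the exception in this group, with higher levels in tg livers. At 2 h it had 551, 961, 884 and 525 CPM in tg livers, against 395, 511, 193, 466.3 and 227 CPM in wt livers, so that every tg liver exceeded every wt liver. At 4 h it had 625.4, 1195, 548, 874 and 755 CPM in tg livers, against 994, 339, 242, 464 and 231 CPM in wt livers, and wt replicate 1 alone lay within the tg range. Non-overlap was seen in 2 of 36 genes at 2 h, Thrsp and Hsd17b7, both higher in tg, a share close to the 6.0% of all genes that did not overlap. The log2 fold changes were 1.03 ± 0.41 (SE) at 2 h and 0.82 ± 0.39 at 4 h, and neither passed by itself (adjusted p = 0.292 and 0.196, edgeR). Without wt 4 h replicate 1 the 4 h value was 1.33 with an adjusted p of 0.0116. In the authors' deposited table Thrsp had a log2 fold change of 1.03 at 2 h with an adjusted p of 0.0133, and 0.82 at 4 h with an adjusted p of 0.282.

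The elongases Elovl6 and Elovl5 and the desaturases Scd1, Fads1 and Fads2 gave 0 of 5 calls at either duration, with log2 fold changes between -0.21 and 0.06 at 2 h and between -0.36 and 0.11 at 4 h. Scd1, which makes monounsaturated fatty acids, was the most abundant of the 36 genes, with 13290, 13030, 11050, 14070 and 8338 CPM in tg 4 h livers, against 21400, 11890, 7914, 17930 and 6630 CPM in wt 4 h livers. At 2 h it had 8538, 17310, 14610 and 7689 CPM in tg livers, against 17790, 15930, 6771, 9550 and 14000 CPM in wt livers. The tg livers lay inside the wt range at both durations, and the log2 fold changes were -0.09 ± 0.34 at 2 h and -0.14 ± 0.32 at 4 h. Fads1 ran from 457 to 596 CPM in tg 4 h livers and from 399 to 712 CPM in wt 4 h livers. Elovl5, Fads2 and Elovl6 averaged 460.0, 312 and 129 CPM over all libraries. Gpam, which starts glycerolipid synthesis, Tkfc, which phosphorylates glyceraldehyde from fructose, and Pnpla3 gave 0 of 3 calls, with negative log2 fold changes throughout, from -0.89 to -0.02 at 2 h and from -0.86 to -0.11 at 4 h. Gpam averaged 87.8 CPM and Tkfc 392 CPM.

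The mevalonate and isoprenoid enzymes (Hmgcs1, Mvk, Pmvk, Mvd, Idi1 and Fdps) gave 0 of 6 calls at either duration. Their log2 fold changes were positive in 5 of 6 at 2 h, with a median of 0.148, and negative in 6 of 6 at 4 h, with a median of -0.126. They ranged from -0.10 to 0.29 at 2 h and from -0.65 to -0.07 at 4 h. Signs turned on single libraries. Among all 36 genes, 13 changed sign at 2 h without tg 2 h replicate 2, and 14 at 4 h without wt 4 h replicate 1. Hmgcs1, the synthase that opens the pathway, had 203, 221, 152, 286 and 194 CPM in tg 4 h livers, against 448, 288, 167, 388 and 114 CPM in wt 4 h livers. The 2 h values were 154, 461, 306 and 277 CPM in tg livers, against 264, 287, 207, 216 and 254 CPM in wt livers. The wide group enclosed the narrow one at each duration, and this was wt at 4 h but tg at 2 h (log2 fold changes 0.29 ± 0.34 at 2 h and -0.41 ± 0.32 at 4 h). Mvd, which decarboxylates mevalonate diphosphate, had the lowest unadjusted p of this group at 4 h (0.0288), with 5.596 to 11.9 CPM in tg 4 h livers, against 7.31 to 22.1 CPM in wt 4 h livers. Its log2 fold change was -0.65 ± 0.28 (adjusted p = 0.141, edgeR), or -0.82 with an adjusted p of 0.0353 without wt 4 h replicate 5. Mvk, Pmvk, Idi1 and Fdps averaged 22.0, 52.8, 261 and 317 CPM over all libraries.

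From squalene to cholesterol (Fdft1, Sqle, Lss, Cyp51, Msmo1, Nsdhl, Hsd17b7, Sc5d and Dhcr7), 0 of 9 genes passed at either duration, with 8 of 9 positive at 2 h and 4 of 9 at 4 h. Their log2 fold changes lay between -0.08 and 0.46 at 2 h and between -0.37 and 0.42 at 4 h. The limit on signs given for the mevalonate genes holds here too. Fdft1, Cyp51, Msmo1 and Dhcr7 averaged 123, 182, 218 and 120.0 CPM over all libraries, Nsdhl 103 CPM and Lss 68.1 CPM. Sqle, a rate-limiting epoxidase, had 110, 96.6, 64.1, 109 and 93.2 CPM in tg 4 h livers, against 137, 83.0, 58.8, 90.7 and 43.3 CPM in wt 4 h livers. In the 2 h cohort it had 78.8, 106, 109.8 and 88.2 CPM in tg livers, against 78.6, 106, 48.8, 82.7 and 75.9 CPM in wt livers. Groups overlapped at both durations, with log2 fold changes of 0.29 ± 0.26 and 0.19 ± 0.25. Hsd17b7 (ENSMUSG00000026675, chromosome 1, 169949535 to 169969241), a reductase of sterol demethylation, had 86.7, 114, 95.3 and 91.7 CPM in tg 2 h livers, against 78.2, 84.1, 48.6, 73.6 and 67.4 CPM in wt 2 h livers, with no overlap. At 4 h it had 118, 106, 79.8, 109 and 121 CPM in tg livers, against 127, 72.9, 52.7, 81.1 and 66.2 CPM in wt livers, where wt replicate 1 was the highest of all. The log2 fold changes were 0.46 ± 0.20 (SE) at 2 h and 0.42 ± 0.19 at 4 h (adjusted p = 0.349 and 0.168, edgeR), and without wt 4 h replicate 1 the 4 h value was 0.65 with an adjusted p of 0.00812. Sc5d, a sterol desaturase, had 301 to 369.7 CPM in tg 4 h livers, against 326 to 543 CPM in wt 4 h livers, and a log2 fold change of -0.37 ± 0.16 that did not pass (adjusted p = 0.143, edgeR).

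Stard4 (ENSMUSG00000024378, chromosome 18, 33199355 to 33213862), a soluble carrier that moves cholesterol between membranes and a known SREBP-2 target, was lower in tg livers at 4 h. It had 102, 120.1, 95.7, 94.1 and 99.0 CPM in tg 4 h livers, against 187, 211, 140.0, 164 and 106 CPM in wt 4 h livers. All tg livers but replicate 2 lay below the lowest wt liver. The log2 fold change was -0.66 ± 0.16 (SE; adjusted p = 0.0106, edgeR), and it passed whichever of the 10 libraries was dropped, with values from -0.769 to -0.547. At 2 h Stard4 had 102, 146, 185 and 144 CPM in tg livers, against 195, 174, 145, 167 and 184 CPM in wt livers, which overlapped (log2 fold change -0.26 ± 0.17). In the authors' deposited table the 4 h values were -0.65 for Stard4 with an adjusted p of 0.00215, 0.90 for Insig2 with 0.00777, -0.54 for Mlxipl with 0.0417 and 0.43 for Srebf2 with 0.0494.

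Averaged over both durations, which uses all 19 libraries, 5 of the 36 genes passed, where 14.2% of all genes did (6.98% higher and 7.22% lower), and 6 had an unadjusted p under 0.05, where 26.9% of all genes had. Thrsp (0.92 ± 0.28, adjusted p = 0.0354), Insig2 (0.71 ± 0.20, 0.0209) and Hsd17b7 (0.44 ± 0.14, 0.0366) rose in tg livers by edgeR's test on the log2 scale. Mlxipl (-0.49 ± 0.13, adjusted p = 0.0126) and Stard4 (-0.46 ± 0.12, 0.0107) fell by the same edgeR test. Srebf2 missed the threshold there (0.29 ± 0.10, adjusted p = 0.0551, edgeR). The calls of Mlxipl and Stard4 held in all 19 fits without a single library, and that of Stard4 was lost without the 3 libraries named above (-0.34, adjusted p = 0.0532, edgeR). Insig2 lost its call without tg 2 h replicate 5 (adjusted p = 0.0580), Thrsp lost it in 11 of 19 such fits (up to 0.0752) and Hsd17b7 in 13 of 19 (up to 0.0799), all by edgeR's test.

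Whether the tg effect differed between 4 h and 2 h was tested as an interaction. None of the 36 genes passed, and 0 had an unadjusted p under 0.05, while over all genes edgeR called 0.0% with 5.79% at an unadjusted p under 0.05, and DESeq2 called 6 genes. The largest estimate among the genes called at 4 h was that of Stard4, at -0.40 ± 0.23. So the passing of Insig2, Srebf2 and Stard4 at 4 h and not at 2 h does not show that their response grew with time.

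Comparing the durations within a genotype, 0 of the 36 genes passed between tg 4 h and tg 2 h livers by edgeR, where 0.913% of all genes did. At an unadjusted p under 0.05 there were 4, Insig2 (0.89 ± 0.29), Stard4 (-0.50 ± 0.17), Mvd (-0.71 ± 0.29) and Mlxipl (-0.41 ± 0.19), as log2 differences of 4 h over 2 h, against 12.1% of all genes, and none was free of overlap, against 4.83% of all genes. DESeq2 called 1 of the 36 and 288 of all 12493 genes. Between wt 4 h and wt 2 h livers edgeR called 0 of the 36 and 0.0% of all genes, with 0 of the 36 and 5.98% of all genes at an unadjusted p under 0.05, and DESeq2 called 0 of the 36. These contrasts share libraries with the genotype contrasts. The time of collection was the same, so the start of light and of food removal moved with the duration.

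Other genes of the pathway were described from a list of 48, of which 47 were tested. At 2 h, 0 rose and 1 fell, and at 4 h, 3 rose and 3 fell, to be read against the shares of all genes above. Mid1ip1, the close relative of Thrsp that promotes polymerisation of acetyl-CoA carboxylase, fell at both durations. It had 29.5, 39.9, 26.8 and 15.6 CPM in tg 2 h livers, against 62.6, 71.6, 57.9, 54.9 and 51.6 CPM in wt 2 h livers. At 4 h it had 19.2, 22.4, 24.7, 14.5 and 14.7 CPM in tg livers, against 48.3, 37.5, 45.8, 44.4 and 29.5 CPM in wt livers. The groups did not overlap at either duration, and the log2 fold changes were -1.10 ± 0.22 (adjusted p = 0.00928) and -1.11 ± 0.20 (0.00194) by edgeR, opposite in sign to those of Thrsp. Of the 47 genes, 2 lay wholly higher and 1 wholly lower in tg livers at 2 h, where 6.0% of all genes did not overlap. At 4 h, 1 lay wholly higher and 2 wholly lower, where 8.19% of all genes did not overlap.

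Among 8 genes of SREBP processing and INSIG turnover, Paqr3, a Golgi anchor of SCAP and SREBP, rose at 4 h (0.52 ± 0.16, adjusted p = 0.0383, edgeR), with 5.45 to 8.85 CPM in tg livers, against 3.72 to 6.26 CPM in wt livers. Erlin1, an endoplasmic reticulum protein that restrains SREBP activation, fell (-0.57 ± 0.14, adjusted p = 0.00865, edgeR), with 24.3 to 38.5 CPM in tg 4 h livers, against 35.1 to 57.5 CPM in wt 4 h livers. None of 6 further sterol synthesis genes and none of 5 tested genes of sterol uptake passed at 2 h or 4 h. Lpin1, the phosphatidate phosphatase of triglyceride synthesis, rose at 4 h (1.89 ± 0.55, adjusted p = 0.0348, edgeR), with 291 to 1241 CPM in tg 4 h livers, against 62.3 to 440 CPM in wt 4 h livers. Usf1, an E-box factor of lipogenic promoters, fell (-0.39 ± 0.12, adjusted p = 0.0479, edgeR), with 15 to 17.7 CPM in tg 4 h livers, against 16.6 to 26.5 CPM in wt 4 h livers. At 2 h, edgeR called none of Paqr3, Usf1 and Lpin1, although their log2 fold changes were 0.64, -0.45 and 1.58. Paqr3 had 5.38 to 6.66 CPM in tg 2 h livers, against 2.84 to 4.82 CPM in wt 2 h livers. These did not overlap, as for 6.0% of all genes. Lpin1 had 512 to 841 CPM in tg 2 h livers, against 66.2 to 580 CPM in wt 2 h livers. DESeq2 called Paqr3 (adjusted p = 0.0184) and Usf1 (0.046) at 2 h, among 425 of all 12493 genes. The 4 h calls of Mid1ip1 and Erlin1 held without each library in turn, whereas those of Paqr3 and Usf1 were each lost in 8 of 10 such fits (adjusted p up to 0.114 and 0.154) and that of Lpin1 in 7 (up to 0.087). The Usf1 call was also lost with the replicate block (adjusted p = 0.0603), RLE scaling (0.0517), no filter (0.0502), limma-voom (0.0676) and only the 2 groups (0.0624), and the Paqr3 call with upper-quartile scaling (0.0523) and only the 2 groups (0.0634).

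Averaged over both durations, 5 of the 47 genes rose and 4 fell, where 6.98% of all genes rose and 7.22% fell. Npc1, which exports cholesterol from lysosomes, fell there (-0.30 ± 0.08, adjusted p = 0.0162, edgeR). At 4 h it had 166, 152, 116, 165 and 148 CPM in tg livers, against 179, 186, 178, 199 and 169 CPM in wt livers, with no overlap, as for 8.19% of all genes, although the 4 h test did not pass (adjusted p = 0.111, edgeR). At 2 h it had 131 to 196 CPM in tg livers, against 184 to 223 CPM in wt livers. The averaged call held in all 19 fits without a single library and was lost without the 3 libraries named above (-0.21, adjusted p = 0.0561, edgeR). Agpat2, an acyltransferase of glycerolipid synthesis, rose in the average (0.31 ± 0.08, adjusted p = 0.0179, edgeR), a call also lost without those 3 libraries (0.26, adjusted p = 0.0555, edgeR). Erlin1 fell in the average as well (-0.33 ± 0.10, adjusted p = 0.0263, edgeR), a call lost in 6 of 19 fits without a single library. Paqr3 (0.58) and Lpin1 (1.73) were also among the genes that rose in the average, and Usf1 (-0.42) among those that fell.

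The 36 genes varied more between livers of a group than most genes did. Their median biological coefficient of variation was 0.27, against 0.15 over all genes tested and 0.129 over 2023 genes of a like level. Pnpla3 (0.635), Elovl6 (0.53), Acly (0.487) and Fasn (0.45) were the most variable, and Srebf2 and Fads1 (0.157 each) the least. Much of this spread was shared. Taking the mean log2 deviation of each library from the mean of 19, over 15 sterol synthesis genes and over 12 genes of fatty acid synthesis, elongation and supply, wt 4 h replicate 1 stood at 0.640 and 0.865, and wt 4 h replicate 5 at -0.673 and -0.740. The library of wt 4 h replicate 1 was the highest of all 19 for 7 of the 15 sterol genes and 7 of the 12 fatty acid genes, and replicate 5 the lowest for 9 and 6. Among tg 2 h livers, replicate 2 stood at 0.635 and 0.636 and replicate 1 at -0.321 and -0.462.

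**Figure D3:**
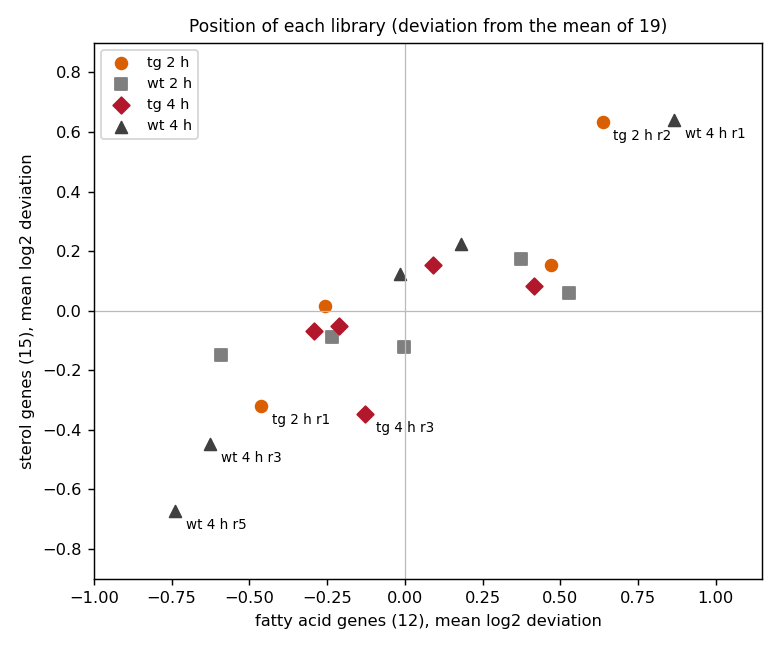
Mean deviation of each library from the mean of all 19, in log2(CPM + 0.5), over 12 fatty acid genes (horizontal) and 15 sterol genes (vertical), with 1 symbol per liver. The tg 4 h livers (red) lie between -0.291 and 0.414 on the fatty acid axis and the wt 4 h livers (dark triangles) between -0.740 and 0.865, so the groups overlap.

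Group by group, the sterol mean was 0.121 ± 0.397 (SD, n = 4) in tg 2 h, -0.025 ± 0.136 (n = 5) in wt 2 h, -0.045 ± 0.193 (n = 5) in tg 4 h and -0.026 ± 0.530 (n = 5) in wt 4 h. The fatty acid mean was 0.097 ± 0.538 in tg 2 h, 0.015 ± 0.452 in wt 2 h, -0.026 ± 0.284 in tg 4 h and -0.067 ± 0.652 in wt 4 h. The means of tg and wt livers of a duration differed by less than the SD of either group, except for sterol genes at 2 h, where the means differed by more than the wt 2 h SD. The wt 4 h and tg 2 h livers were the most scattered, and the low mitochondrial share named above was found both in a high liver (wt 4 h replicate 1) and in a low one (tg 2 h replicate 1). Its part in these values was not tested.

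**Figure D4:**
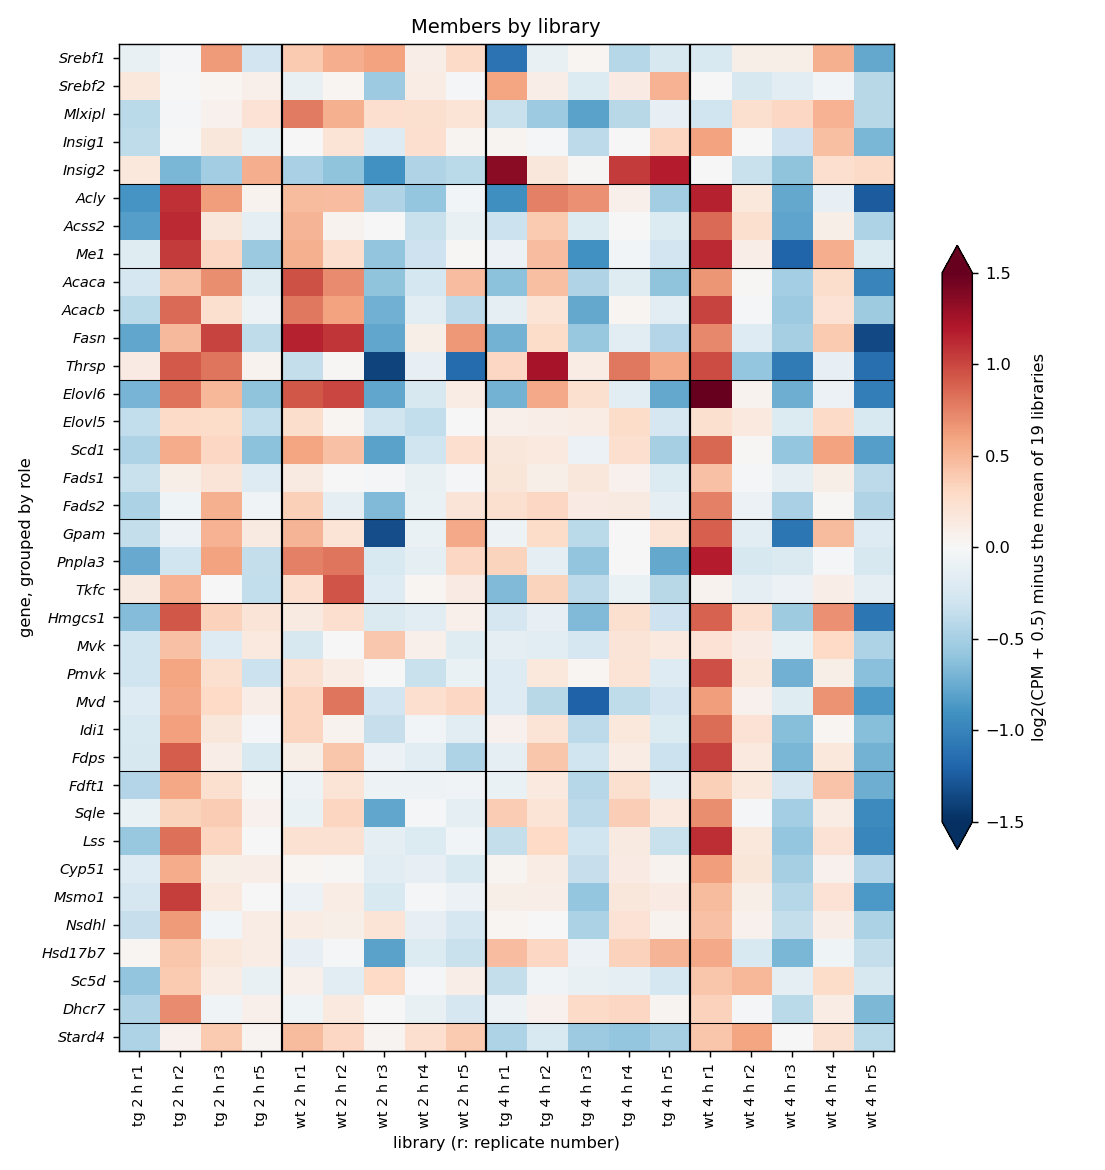
Deviation of log2(CPM + 0.5) from the mean of 19 libraries for each of the 36 genes (by role, top to bottom) and each library (r is the replicate number), from -1.5 (blue) to 1.5 (red), with darker ends for values beyond. The columns of wt 4 h replicate 1 and tg 2 h replicate 2 are red and those of wt 4 h replicate 5 and tg 2 h replicate 1 blue for most enzymes, while Insig2 is reddest in tg 4 h replicates 1, 4 and 5.

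The sign of many small values moved with single libraries. Without wt 4 h replicate 1, 14 of the 36 log2 fold changes at 4 h changed sign and their median turned to 0.128, and without tg 2 h replicate 2, 13 of 36 changed sign at 2 h and the median became -0.099. With tg 2 h replicate 1, tg 4 h replicate 3 and wt 4 h replicate 1 all left out, 18 changed sign at 4 h, while the genes called at 4 h kept their direction, Insig2, Srebf2 and Stard4 stayed called, and Thrsp (1.45, adjusted p = 0.00886), Hsd17b7 (0.75, 0.00224) and Mlxipl (-0.54, 0.0382) were called in addition by edgeR. The count at 4 h was thus 6 of 36 in place of 3, while over all genes it was 2101 of 12550 in place of 1423 of 12493. As tg 4 h replicate 3 was picked on values of 3 of these genes, this fit is no independent test of them. Other livers far from the mean, such as wt 4 h replicate 5 and tg 2 h replicate 2, were kept. No gene called in a comparison changed sign in that comparison in any of the fits.

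On the scale of CPM per kilobase of the longest annotated transcript, which allows levels to be set between genes, Scd1 (2590) and Thrsp (413) led, ahead of Elovl5 (165), Fads1 (153) and Tkfc (142). The regulators were spread below them, with Insig1 at 104, Srebf1 at 50.6, Mlxipl at 36.8 and Srebf2 at 10.7 CPM per kilobase as means of 19 libraries. In tg 4 h livers Insig2 averaged 81.1 CPM per kilobase, against 43.5 in wt 4 h livers, and Insig1 averaged 102 in tg 4 h livers, against 108 in wt 4 h livers. The order depends on the length used. Over the mean transcript length Scd1 (6350), Thrsp (432), Elovl5 (413) and Fads1 (369) still led, but Fdps (270.0), Idi1 (223) and Fads2 (213) stood above Tkfc (178), and Insig2 (172) above Insig1 (162). At the low end, by the longest transcript, were Lss (9.74), Mvk (9.22), Mvd (7.92) and Pnpla3 (0.419).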

How the data were processed

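Liver RNA (1 µg, integrity numbers above 8) went into stranded libraries by poly-A selection and 14 PCR cycles, per the labels' protocols. According to the submitters' processing notes, the tools were STAR, Salmon 1.4.0 and DESeq2 1.30.0 on GRCm38.p6, with no role stated for each. The authors deposited whole-number counts for 14576 genes. The step from estimates to counts was not given in those notes, so reads shared by near-identical genes carry an error that was not measured. The authors deposited for each duration a normalised mean signal, log2 fold changes, a test score, p-values and adjusted p-values, with a column naming the group TH, read here as tg. Left out were 257 genes with no 4 h values, whose mean counts at 2 h were at most 5.11.

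The 36 genes and all lists were chosen with earlier results of these data known. Values in every library were to be given for genes called in any comparison and for Srebf1, Srebf2, Insig1, Insig2, Fasn, Scd1, Hmgcs1 and Sqle, and ranges for the others. Counts were fitted in R 4.3.3 with edgeR 4.0.16: TMM scaling (also behind CPM), a low-count filter (count 10, total 15), 1 mean per group over all 19 libraries, and a robust quasi-likelihood test with 15 residual degrees of freedom. Adjustment ran over 12493 genes at a threshold of 0.05, and standard errors came from the fold change and its test statistic. No pair of libraries in a group agreed within sampling noise. The test was also run on simulated data, with changed genes drawn from all those tested. It recovered 34.3% of 1.5-fold and 67.2% of 2-fold changes at 2 h, with 3.73% of calls false. At 4 h these shares were 41.8%, 76.1% and 5.37%. They describe all genes tested and were not measured for the 36 genes, whose median coefficient of variation was larger (0.27, against 0.15). Alternatives were other scalings and filters, DESeq2 1.42.0, limma-voom (limma 3.58.1) with and without sample weights, a replicate block, only the groups compared, each library dropped in turn and, chosen after seeing the data, 3 libraries dropped together. Gene positions are from GENCODE M21 (GRCm38). A gene of the wider pathway lists is counted but not reported here.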

Additional observations from a re-analysis of the deposited data

Results flagged for a closer look

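Each gene was examined in each of the 4 groups for a single library set apart from the others by more than Dixon's 95% critical value. Of 144 such checks 6 were positive, and chance gives about 1 in 20. In wt 4 h replicate 1, Elovl6 was at 345 CPM, against 54.9 to 117 CPM in the other wt 4 h livers, and Pnpla3 at 1.72 CPM, against 0.328 to 0.461 CPM. In tg 4 h replicate 3, 3 sterol genes lay below the rest of their group: Mvd at 5.6 CPM, Cyp51 at 141 CPM and Msmo1 at 141 CPM. In wt 2 h replicate 2, Fdft1 at 139 CPM lay above the other wt 2 h livers, which held 113 to 116 CPM.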

How the results depend on the processing

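Counts of the 36 genes called at 4 h (3) were 6 with limma-voom sample weights, 1 in a fit of only the 2 groups and 6 without the 3 libraries that stood apart, and 1 to 5 when 1 library was left out. Averaged over durations (5), they were 3 to 6 when 1 library was left out. Over all genes, the 4 h calls were 2296 of 12493 with sample weights and 1129 of 12096 with only the 2 groups, where 35 of the 36 were tested. They were 2101 of 12550 without the 3 libraries and 895 to 1887 when 1 library was left out, and the averaged calls then 1405 to 2113. Between tg 4 h and tg 2 h (0), DESeq2 and the replicate block each called 1 of the 36, and 288 and 78 of all 12493 genes. No member was called at 2 h, in the interaction or between wt durations under any setting run. Same-numbered libraries were not treated as pairs: 4 of 9 correlations exceeded 0.1 (-0.329 to 0.186), which cannot decide whether the numbers mark pairs. The replicate block changed no other count of members by over 1.5 times.

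Small log2 fold changes of tg over wt changed sign. Without the 3 libraries, Scd1 was 0.049, Mvd 0.023 and Sc5d 0.081 at 2 h, and Insig1 0.178, Fasn 0.086 and Scd1 0.151 at 4 h; with sample weights, Insig1 was 0.050 and Scd1 0.047 at 4 h. Leaving out 1 library gave, at 2 h, -0.317 to 0.074 for Scd1, -0.001 to 0.502 for Hmgcs1, -0.244 to 0.052 for Mvd and -0.239 to 0.075 for Sc5d, and at 4 h -0.217 to 0.078 for Insig1, -0.452 to 0.004 for Fasn and -0.296 to 0.109 for Scd1. The causes were not tested. Over all genes, calls ran from 151 to 425 at 2 h (270), from 895 to 2296 at 4 h (1423) and from 20 to 288 between tg durations (114). The intervals given allow for the spread between libraries.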
